A study of Mus musculus with 21 samples.

Results

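The genes described here are 10 transcripts of T cells and cytotoxic lymphocytes: Cd3d, Cd3e, Cd3g, Lat, Icos, Cd4, Cd8a, Gzma, Nkg7 and Ccl5, of 12393 genes on the array. All probe sets that the array annotation assigned to 1 of these genes alone were taken, which gave 13 of the 22626 probe sets that are not controls. Icos, Cd4 and Cd8a had 2 probe sets each and the other genes 1 each. By the RefSeq annotation of build GRCm38.p6 the CD3 genes lie side by side on chromosome 9, Cd3g at chr9:44969572-44980431, Cd3d at chr9:44981769-44987052 and Cd3e at chr9:44998735-45009663. Lat lies at chr7:126363827-126369705, Nkg7 at chr7:43437138-43438246, Icos at chr1:60960773-61000322 and Gzma at chr13:113093824-113100981. Ccl5 lies at chr11:83525778-83530518, Cd4 at chr6:124864693-124888247 and Cd8a at chr6:71373427-71379171. A filter removed the dimmest 33.3% of all probe sets by their mean over the arrays and kept 15084. Of the 13 probe sets, 9 passed it, 1 for each gene except Cd4. Both Cd4 probe sets (1419696_at and 1427779_a_at), the second Icos probe set (1421931_at) and the second Cd8a probe set (1425335_at) did not pass and are given only as levels.

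The study asked how the lung's response to bleomycin depends on mouse strain. Bleomycin, a cancer drug that cuts DNA strands and can scar the lung, was given by osmotic minipump to 3 inbred strains (A/J, C57BL/6, C3H/HeJ), and total RNA from right lungs was read on 21 Affymetrix arrays. An array carried RNA of 3 to 5 mice of the same sex, so spread within a group is spread between pools, and single mice cannot be seen. In A/J there were 4 pools at 3 weeks (males at 80 and 100 mg/kg, females at 100 and 125 mg/kg), 2 at 6 weeks (males at 100, females at 125 mg/kg) and 2 control pools, 1 of each sex. In C3H/HeJ each of 3 weeks, 6 weeks and control had 1 pool per sex, treated males at 100 and treated females at 125 mg/kg. In C57BL/6 the same doses were used, with 1 pool per sex at 3 weeks, in moribund mice and in controls, and at 6 weeks 1 pool of females alone. Treated males and females of C57BL/6 and C3H/HeJ thus also differed in dose, so sex and dose cannot be told apart there. The time at which mice became moribund, the age of the mice and any vehicle in the controls were not given in the sources used here.

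A T cell recognises peptide through its T cell receptor, which cannot signal on its own. The CD3 gamma, delta and epsilon chains, encoded by Cd3g, Cd3d and Cd3e, carry the signal into the cell, and Lat is the membrane scaffold on which the downstream signalling proteins assemble. CD4 and CD8 are coreceptors that hold the receptor to class II and class I MHC molecules, and ICOS is a costimulatory receptor of the CD28 family that activated T cells put on their surface. Granzyme A (Gzma) is a serine protease stored in the granules of NK cells and cytotoxic T cells, Nkg7 is a membrane protein of such granules, and Ccl5 is a chemokine that these cells and others release to recruit leukocytes.

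Promoter sequences from RefSeq (build GRCm38.p6, 300 bases that span the start site) were found for 7 of the 10 genes, Cd3d, Cd3e, Cd3g, Lat, Cd8a, Gzma and Nkg7. Cd3d and Cd3g are shown because their levels followed each other most closely over the arrays of all pairs of members and because their start sites lie 1355 bases apart on chromosome 9, on opposite strands and pointing away from each other. Lat and Gzma are shown because they gave the largest changes that passed the test. Capitals mark matches to motifs searched on both strands, none of which overlap here. They were the RUNX letters TGTGGT and the ETS letters CAGGAAG. Others were the GATA letters AGATAAG, the TCF/LEF letters CTTTGAA and the TATA box TATAAA. An NF-kappaB motif (GGGA and then TTTCC, with 1 free base between) and an interferon response motif (a pair of GAAA blocks with 2 free bases between) were searched too.
Cd3d promoter (chr9:44981536-44981835, plus strand): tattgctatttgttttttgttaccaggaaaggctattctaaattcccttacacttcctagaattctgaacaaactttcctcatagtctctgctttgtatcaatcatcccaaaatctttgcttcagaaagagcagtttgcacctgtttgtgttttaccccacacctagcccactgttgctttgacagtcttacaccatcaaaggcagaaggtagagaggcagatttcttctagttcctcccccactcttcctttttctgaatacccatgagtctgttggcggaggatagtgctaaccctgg
Cd3g promoter (chr9:44980382-44980681, minus strand): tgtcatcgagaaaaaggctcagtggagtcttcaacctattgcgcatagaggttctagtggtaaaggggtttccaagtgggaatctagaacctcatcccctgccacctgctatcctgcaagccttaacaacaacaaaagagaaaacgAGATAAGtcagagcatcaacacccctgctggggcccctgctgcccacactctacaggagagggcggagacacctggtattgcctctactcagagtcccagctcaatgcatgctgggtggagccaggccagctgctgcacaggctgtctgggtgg
Lat promoter (chr7:126369519-126369818, minus strand): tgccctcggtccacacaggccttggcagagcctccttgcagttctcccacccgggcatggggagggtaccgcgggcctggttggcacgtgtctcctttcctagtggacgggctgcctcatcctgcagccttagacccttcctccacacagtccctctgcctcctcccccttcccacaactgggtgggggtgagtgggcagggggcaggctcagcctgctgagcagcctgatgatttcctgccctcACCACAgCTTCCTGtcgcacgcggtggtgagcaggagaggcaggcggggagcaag
Gzma promoter (chr13:113100932-113101231, minus strand): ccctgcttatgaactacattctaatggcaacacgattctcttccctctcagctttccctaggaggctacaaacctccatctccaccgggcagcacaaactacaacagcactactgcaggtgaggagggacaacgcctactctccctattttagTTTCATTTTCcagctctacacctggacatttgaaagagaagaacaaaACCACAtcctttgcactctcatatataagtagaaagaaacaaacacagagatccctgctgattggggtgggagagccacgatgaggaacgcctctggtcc
The Lat promoter held a RUNX and an ETS match on the minus strand of the sequence shown, with first bases at -5 and 2 when the start site is counted as 0. The Gzma promoter held an interferon response match at -97 and a RUNX match at -50, the Cd3g promoter a GATA match at -104, and the Cd3d promoter held no match. Of 32851 promoters of the same length in the table, 16.8% held the RUNX letters, 13.3% the ETS letters, 3.44% the interferon response letters and 3.04% the GATA letters. The promoter of Nkg7 also held RUNX and ETS matches and that of Cd3e an ETS match. These matches are a description of letters, not of binding.

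Levels below are intensities after quantile normalization, and changes are differences of log2(intensity + 16), which understate the change of dim probe sets. All comparisons came from 1 limma model with a term for each of the 10 groups and for sex, and a change was called at a Benjamini-Hochberg adjusted p under 0.05 over 15084 probe sets. The median intensity of the arrays as deposited ran from 58.6 to 111. Markers of lung tissue were bright throughout: Sftpc, a surfactant protein gene of type 2 alveolar cells, ran from 6041 to 7395 and Scgb1a1, of club cells, from 6372 to 7760 over the 21 arrays. Eif2s3y, a Y-linked gene, was at 99.1 or above on all male arrays and at 7.92 or below on all female arrays. Xist, which is expressed from the inactive X, was at 409 on the C3H/HeJ male 3 week array and at 287 on the A/J male 3 week array at 80 mg/kg, against 83.1 to 160 on the other male arrays and 609 or more on female arrays. The ratio of 3' to 5' Gapdh control probe sets, which rises as RNA degrades, ran from 0.77 to 1.34 on 20 arrays and was 2.08 on the C3H/HeJ female 6 week array. Values without these arrays are given with the comparisons of A/J and C3H/HeJ that they enter. Where that leaves 1 pool in a group, its spread was taken from the other groups. In bulk lung RNA, fewer cells of a type and less RNA per cell cannot be told apart.

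In C3H/HeJ lungs at 3 weeks Lat fell, and the 3 CD3 genes lay below their controls on both arrays, although none of the 3 passed the test. Of the 10 groups this one had the lowest mean of Cd3d, Cd3e and Lat, while the mean of Cd3g was lowest in moribund C57BL/6 mice. Lat measured 17.2 in the male and 53.1 in the female pool at 3 weeks, against 103 and 81.9 in the male and female control pools. Both 3 week arrays lay below both control arrays, and below all other arrays of the study. The difference was -1.17 on the log2 scale (SE 0.25, 95% interval -1.70 to -0.65), and its adjusted p was 0.0211 in limma.

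Cd3d measured 34.8 in the male and 13.2 in the female C3H/HeJ pool at 3 weeks, against 89.7 and 99.9 in the controls. Cd3e measured 44.2 and 30.8 at 3 weeks, against 102 and 128 in the controls, and Cd3g 60.1 and 50.1, against 94.7 and 92.9. For each of the 3 genes both treated pools lay below both control pools. The female control pool also had a raised level of Glycam1, a mucin of lymph node vessels, given below with Gzma. The part of lymph node RNA in the levels of that pool was not tested. Cd3d differed by -1.52 (SE 0.37), with an adjusted p of 0.0501 that missed the threshold. Cd3e differed by -1.30 (SE 0.60, adjusted p = 0.327) and Cd3g by -0.63 (SE 0.30, adjusted p = 0.333), so neither was called. In this comparison 1 of 9 member probe sets was called, beside 1.7% of all probe sets tested. An unadjusted p under 0.05 was found for 4 of 9 (Cd3d, Cd3e, Cd3g and Lat), beside 14.9% of all. The median change of the 9 was -0.46, beside -0.02 over all probe sets tested.

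The calls of this comparison depended on single arrays and on the scaling. Without the C3H/HeJ male 3 week array, which carried the high Xist value, Lat differed by -0.76 (adjusted p = 0.145), and without the male control array by -0.84 (adjusted p = 0.349). Without both male arrays of high Xist, Lat differed by -0.78 (adjusted p = 0.128) and Cd3d by -2.001 (adjusted p = 0.0444), so that Cd3d was called in place of Lat, beside 1.52% of all probe sets. Cd3e then differed by -1.64 (adjusted p = 0.300) and Cd3g by -0.79 (adjusted p = 0.274). In either setting that leaves out the male 3 week array, the 3 week group was 1 female pool. With the deposited scaling Lat also lost its call (-1.23, adjusted p = 0.159). Cd3d was called in 6 of 9 alternative settings, with changes between -2.08 and -0.86 over all 9. Within males Cd3d differed by -1.06 and Lat by -1.84, and within females Cd3d by -1.99 and Lat by -0.50, each as 1 pool against 1.

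**Figure D1:**
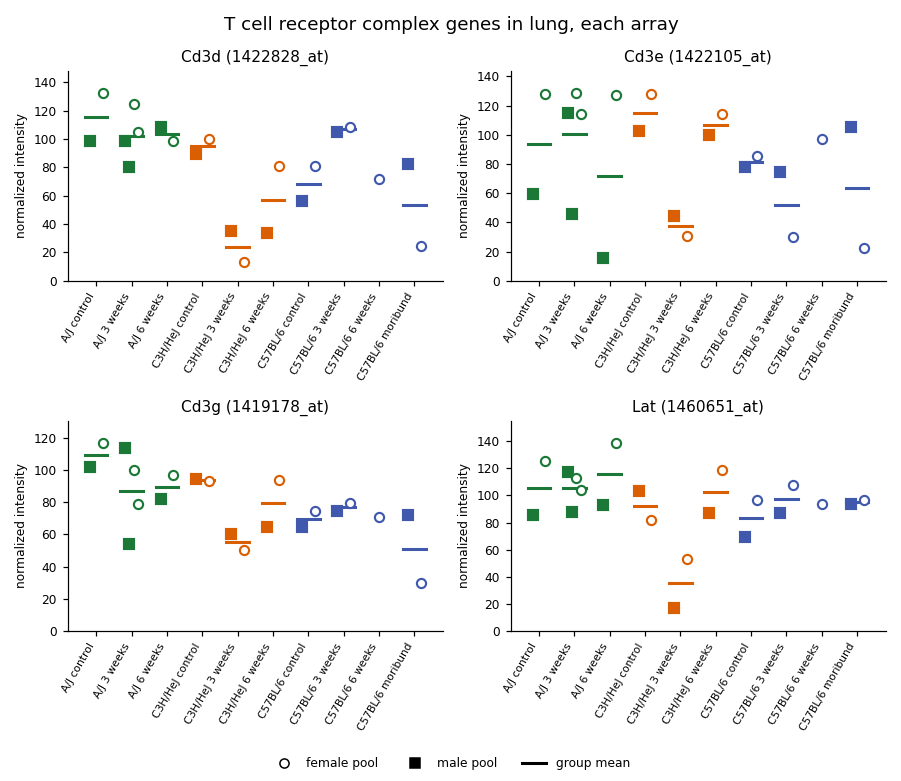
Normalized intensity of Cd3d, Cd3e, Cd3g and Lat on each array (y axis, linear, from 0) by strain and stage (x axis); filled squares are male pools, open circles female pools and bars group means. In C3H/HeJ at 3 weeks both points lie below both control points in all 4 panels, and Lat at 17.2 is the lowest point of its panel.

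At 6 weeks in C3H/HeJ, Lat measured 86.9 in the male and 119 in the female pool, against 53.1 or less at 3 weeks. Both arrays lay above both 3 week arrays, and the female pool also above both controls. The female 6 week pool and the female control pool both had raised Glycam1, given below with Gzma. The difference of 6 weeks from 3 weeks was 1.30 (SE 0.25), with an adjusted p of 0.0582, and 1.24 (adjusted p = 0.264) without the female 6 week array of high Gapdh ratio. Without the male arrays of high Xist it was 0.91 (adjusted p = 0.0975). Cd3d measured 33.8 in males and 80.8 in females, Cd3e 99.8 and 114, and Cd3g 64.8 and 94.1. The male pool had a low Cd3d beside a Cd3e close to that of the male control pool. None of the 9 members was called for 6 weeks against 3 weeks, beside 0.0994% of all probe sets, or against control, beside 0.0663%. An unadjusted p under 0.05 was found for 3 of the 9 against 3 weeks, beside 14% of all, and 0 against control, beside 4.46%. Without the female 6 week array the differences of the 9 from control lay between -1.18 for Cd3d and 0.18 for Icos, none of them called.

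In C57BL/6 lungs at 3 weeks no T cell receptor gene passed the test, and Cd3d lay above its controls. Cd3d measured 105 and 109 in the male and female pools at 3 weeks, against 56.5 and 80.7 in the controls, so both treated arrays lay above both controls. Cd3g measured 74.9 and 79.5 against 64.5 and 74.6, and Lat 87.3 and 108 against 69.2 and 97. Both Cd3g arrays lay above both controls by a small margin, and the arrays of Lat overlapped. Cd3e went the other way, at 74.6 and 29.8 against 78.1 and 85.2. The changes were 0.55 for Cd3d (SE 0.37, adjusted p = 0.401), 0.13 for Cd3g, 0.21 for Lat and -0.60 for Cd3e (SE 0.60, adjusted p = 0.608).

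The responses of C57BL/6 and C3H/HeJ at 3 weeks were compared directly. The response of Cd3d was 2.08 higher in C57BL/6 than in C3H/HeJ on the log2 scale (SE 0.53, adjusted p = 0.0992) and that of Lat 1.38 higher (SE 0.35, adjusted p = 0.0988). Both were short of the threshold. Without the 2 male arrays of high Xist the difference of Cd3d was 2.56, and C3H/HeJ at 3 weeks was then 1 female pool. Over 9 alternative settings, that one included, the difference of Lat lay between 0.82 and 1.81 and was called in 0. No member was called in any of the 3 response differences. The share of all probe sets called was 0.152% for C57BL/6 against C3H/HeJ, 1.07% for C57BL/6 against A/J and 0% for A/J against C3H/HeJ. In the same order, 2, 0 and 2 of the 9 had an unadjusted p under 0.05, beside 14.1%, 13.8% and 3.43% of all.

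In A/J no receptor gene passed the test at any stage. At 3 weeks, over the male pools at 80 and 100 mg/kg and the female pools at 100 and 125 mg/kg, Cd3d measured 98.9, 79.9, 125 and 105, against 98.7 and 132 in the male and female controls. Cd3g measured 114, 54.2, 100 and 78.7 against 102 and 117, and Lat 117, 87.4, 113 and 104 against 85.7 and 126. The groups overlapped for each of these genes, and the male pool at 100 mg/kg was the lowest of the treated pools. Cd3e measured 115, 45.4, 128 and 114 at 3 weeks, against 59.5 and 128 in the controls, with the same male pool lowest. At 6 weeks Cd3e measured 15.9 in the male and 127 in the female pool, the widest split of the gene in any group, while Cd3d in the same pools measured 109 and 98.4. Changes at 3 weeks lay between -0.32 for Cd3g and 0.09 for Cd3e. No member was called in A/J at 3 weeks, beside 0.842% of all probe sets. None was called at 6 weeks against control (0.0994% of all) or against 3 weeks (0.0133%). Icos alone had an unadjusted p under 0.05 at 3 weeks, beside 10.1% of all, and at 6 weeks against control, beside 4.7%. For 6 weeks against 3 weeks the count was 0, beside 4.63%. Without the male arrays of high Xist none was called at 3 weeks, with changes between -0.47 for Cd3g and 0.44 for Icos.

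The moribund C57BL/6 group was split for these genes. The female pool measured 24.5 for Cd3d, 22.1 for Cd3e and 30 for Cd3g, the lowest C57BL/6 values of each gene. In the male pool the same probe sets measured 82.2, 105 and 72.2, above the male control pool each time. Lat did not follow, at 96.7 in the female and 94 in the male moribund pool, against 97 and 69.2 in the female and male controls. The changes against control were -0.41 for Cd3d, -0.52 for Cd3e, -0.42 for Cd3g and 0.18 for Lat, with adjusted p between 0.393 and 0.693. Without the male moribund array 5 members were called in this comparison in place of 1, Cd3d, Cd3g, Icos, Gzma and Nkg7, beside 14.5% of all probe sets. The group is then the female pool alone, with the spread of the other groups assumed for it. Without the female moribund array 1 member was called, beside 6.3% of all.

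Across all 21 arrays Cd3d and Cd3g correlated at a Pearson r of 0.80, Cd3e and Cd3g at 0.62, Cd3d and Lat at 0.60 and Cd3d and Cd3e at 0.44. These values describe arrays that share groups and normalization and carry no test. The probe sets of other genes closest to the mean pattern of the 3 CD3 genes, of 13852 compared over the 21 arrays, were those of Cd37, Nck1, Fzd8, Trbv1, Cytip, Scamp1, Map4k1 and Otub2, with r between 0.74 and 0.81. Trbv1 is a variable segment of the T cell receptor beta chain.

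Icos was the member that rose, in C57BL/6 lungs at 3 weeks and in the mean of the strains. It measured 120 in the male and 97.3 in the female C57BL/6 pool at 3 weeks, against 61.6 and 41.8 in the controls. Both 3 week arrays lay above both controls, and so did the moribund arrays at 90.7 and 111 and the female 6 week array at 76. At 3 weeks the difference was 0.89 (SE 0.27, 95% interval 0.32 to 1.46, adjusted p = 0.0427). Of 9 member probe sets this was the 1 called in C57BL/6 at 3 weeks, beside 10.7% of all probe sets tested. It was also the 1 with an unadjusted p under 0.05, beside 24.2% of all. The median change of the 9 was 0.13, beside -0.01 over all probe sets. In moribund mice Icos differed from control by 0.80 (SE 0.27, adjusted p = 0.0614), which did not pass.

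The other strains had Icos levels in the same direction at 3 weeks. In A/J it measured 134 and 108 in male pools at 80 and 100 mg/kg and 72.4 and 58.4 in female pools at 100 and 125 mg/kg, against 53.9 and 53.6 in the male and female controls. All 4 treated arrays lay above both controls, the male pools by more than the female pools. In C3H/HeJ it measured 98.1 and 99.5 at 3 weeks, against 79.4 and 65.6 in the controls, again with no overlap. The changes were 0.59 in A/J (SE 0.23, adjusted p = 0.388) and 0.38 in C3H/HeJ (SE 0.27, adjusted p = 0.548), and neither passed alone.

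Averaged over the 3 strains, Icos rose by 0.62 at 3 weeks (SE 0.15, 95% interval 0.31 to 0.93, adjusted p = 0.0102), in all 8 treated arrays relative to the 6 controls of their strains. It was the 1 member of 9 called in the mean of the strains, beside 13.7% of all probe sets. An unadjusted p under 0.05 was found for 3 of 9 (Icos, Lat and Gzma), beside 27.4% of all. The call of the mean held without any 1 array (0.57 to 0.67) and without the 2 male arrays of high Xist (0.59, adjusted p = 0.0238), and was lost with the deposited scaling (0.41, adjusted p = 0.138). That of C57BL/6 alone was lost without any of its 4 arrays (adjusted p between 0.104 and 0.265) and without any of 6 others (adjusted p between 0.05 and 0.0564). It was also lost with the deposited scaling (0.72, adjusted p = 0.367), with no filter on dim probe sets (adjusted p = 0.0759) and with the Gapdh ratio as a covariate (0.83, adjusted p = 0.0772). At 6 weeks Icos measured 73 and 109 in A/J and 90.6 and 96.7 in C3H/HeJ male and female pools, above the controls of each strain.

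The second Icos probe set, 1421931_at, followed the first in some comparisons and not in others. It ran from 3.15 to 35.9 over all arrays. At 3 weeks in C57BL/6 it measured 5.58 and 21.5, against 6.8 and 24.9 in the male and female controls, and in C3H/HeJ 3.15 and 11.6, against 35.9 and 13.4. With the filter on dim probe sets left off, its change in the mean of the strains was -0.26 (SE 0.23, adjusted p = 0.553). The 2 probe sets thus disagreed in sign in the mean of the strains, where the change of 1421931_at was close to its SE in size. Both rose in A/J males at 3 weeks (0.33 for 1421931_at, 0.96 for 1421930_at) and in moribund males (1.18 and 0.46). In females of those comparisons they differed in sign (-0.18 and 0.22 in A/J, -0.86 and 1.13 in moribund mice). The rise that was called rests on 1421930_at alone.

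The coreceptor probe sets were dim, and none passed the test in any comparison. Cd8a 1451673_at ran from 35.8 to 57.9 over the 21 arrays, and its changes at 3 weeks were -0.09 in A/J (95% interval -0.49 to 0.31), -0.14 in C57BL/6 (-0.59 to 0.32) and -0.13 in C3H/HeJ (-0.58 to 0.33). Cd8a 1425335_at ran from 2.1 to 10.9, Cd4 1419696_at from 10.3 to 22.3 and Cd4 1427779_a_at from 1.13 to 6.5. With the filter left off, the differences of these 3 probe sets from control lay between -0.01 and 0.22 in the 3 week and moribund comparisons, and none passed (adjusted p of 0.33 or more).

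**Figure D2:**
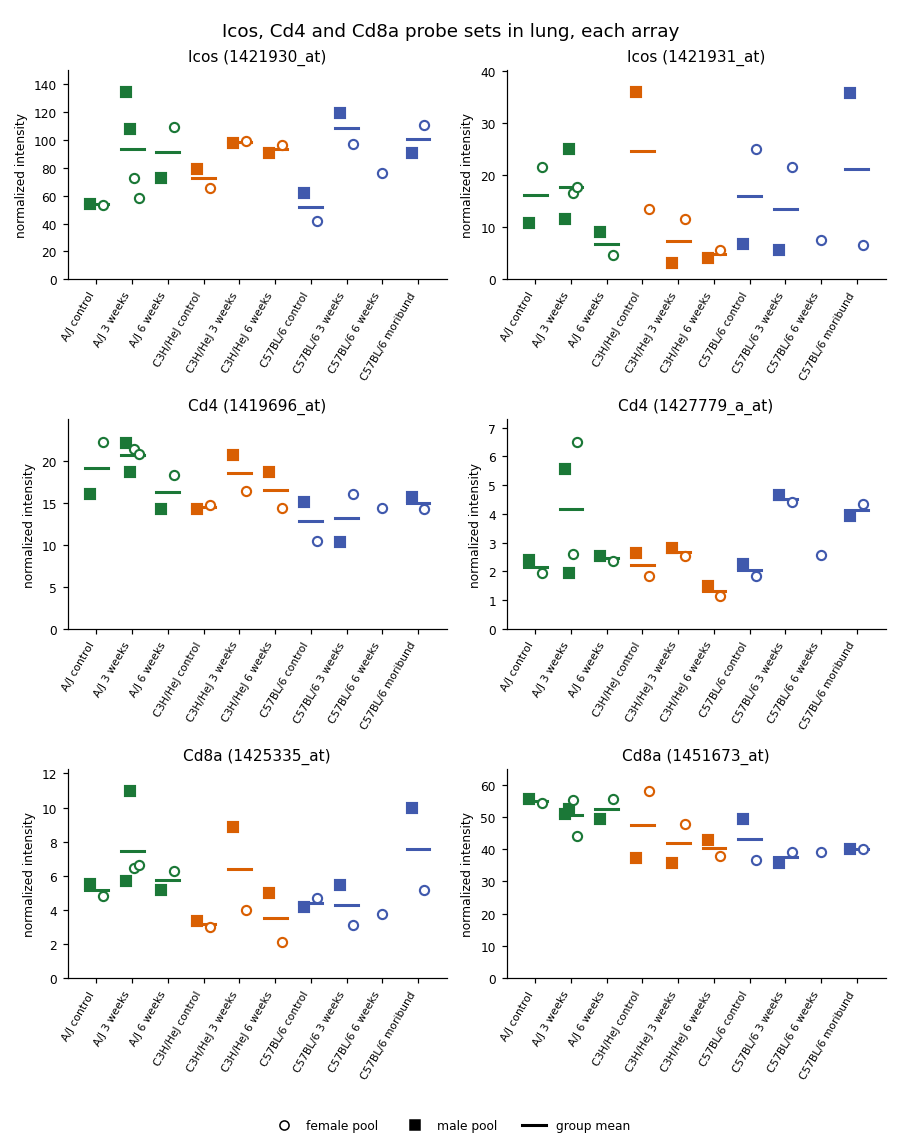
Normalized intensity of both probe sets each of Icos, Cd4 and Cd8a on each array (y axes, linear, from 0, scaled per panel) by strain and stage; filled squares are male pools, open circles female pools and bars group means. Icos 1421930_at lies above its strain's controls in every treated C57BL/6 array, while the Cd4 probe sets stay at or below 22.3.

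Gzma fell in moribund C57BL/6 lungs, the largest change of any member against its strain's controls. It measured 73.4 in the male and 59 in the female moribund pool, against 333 and 322 in the male and female control pools. The moribund arrays were the lowest of all 21 for this gene. The difference was -2.07 on the log2 scale (SE 0.36, 95% interval -2.83 to -1.30, adjusted p = 0.00124). It was the 1 of 9 members called in moribund mice against control, beside 12.8% of all probe sets. With an unadjusted p under 0.05 there were 2 of 9, beside 27% of all. Gzma was called in all 9 alternative settings and without each of the 21 arrays in turn. Within males it differed by -1.96 and within females by -2.17.

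The other treated C57BL/6 arrays lay between these ends or with the controls. At 3 weeks the male pool measured 121 and the female pool 326, so the male pool lay below both controls and the female pool between them, and the change of -0.67 (SE 0.36, adjusted p = 0.278) did not pass. The female 6 week pool measured 143, a difference from the female control pool of -1.09, with no test for a single array. In the same 6 week pool Icos differed from the female control by 0.67, and Cd3d, Cd3e, Cd3g, Lat, Nkg7 and Ccl5 by between -0.14 and 0.16. Moribund mice differed from 3 week mice by -1.40 (SE 0.36, adjusted p = 0.241). No member was called in that comparison, beside 0.00663% of all. Of the 9, Cd3d and Gzma had an unadjusted p under 0.05, beside 9.5% of all.

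Nkg7 and Ccl5 did not pass the test in moribund mice, and in the male pool both lay above the male control. Nkg7 measured 119 in the male and 33.5 in the female moribund pool, against 110 and 98.8 in the controls, a difference of -0.56 (SE 0.34, adjusted p = 0.322). Ccl5 measured 260 and 177, against 241 and 241, a difference of -0.15 (SE 0.27, adjusted p = 0.767). The female moribund pool was the lowest of all arrays for both genes, as it was for Cd3g and Gzma. At 3 weeks in C57BL/6, Nkg7 measured 104 and 127 against 110 and 98.8, and Ccl5 198 and 329 against 241 and 241, with overlap of treated and control arrays in both cases.

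The levels of Gzma in A/J and C3H/HeJ did not overlap. In A/J it ran from 79.6 to 166 over 8 arrays, and in C3H/HeJ from 293 to 801 over 6 arrays. In A/J it measured 145 and 153 in male and female controls, between 79.6 and 166 at 3 weeks, and 90.6 and 146 at 6 weeks. In C3H/HeJ it measured 298 and 576 in male and female controls, 293 and 300 at 3 weeks, and 373 and 801 at 6 weeks. Among control mice A/J differed from C3H/HeJ by -1.39 (SE 0.36, adjusted p = 0.112) and C57BL/6 from A/J by 1.06 (SE 0.36, adjusted p = 0.139). Neither passed, although the control arrays did not overlap in either pair. C57BL/6 controls differed from C3H/HeJ controls by -0.33 (adjusted p = 0.775).

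No member was called between control strains. The share of all probe sets called was 3.17% for C57BL/6 against A/J, 1.01% for A/J against C3H/HeJ and 2.5% for C57BL/6 against C3H/HeJ. In the same order, 1, 1 and 0 of 9 members had an unadjusted p under 0.05, beside 16%, 6.58% and 14% of all. Gzma was the member both times. Ordered by the mean of log2 levels, Gzma ran from C3H/HeJ at 6 weeks through C3H/HeJ control, C57BL/6 control, C3H/HeJ 3 weeks, C57BL/6 3 weeks, A/J control, C57BL/6 6 weeks, A/J 6 weeks and A/J 3 weeks to moribund C57BL/6. The pools of neighbours overlapped except between C57BL/6 control and C3H/HeJ 3 weeks, between A/J control and the single C57BL/6 6 week pool, and between A/J 3 weeks and moribund C57BL/6.

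**Figure D3:**
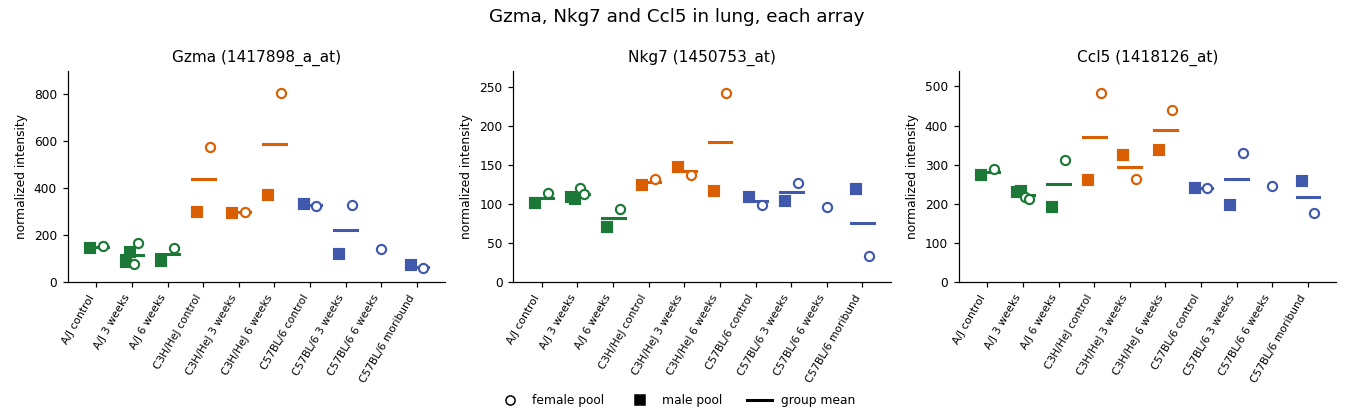
Normalized intensity of Gzma, Nkg7 and Ccl5 on each array (y axes, linear, from 0, scaled per panel) by strain and stage; filled squares are male pools, open circles female pools and bars group means. Gzma is lowest in the 2 moribund C57BL/6 pools (73.4 and 59) and highest in the C3H/HeJ female 6 week pool (801).

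The 2 highest arrays for Gzma and for Ccl5 were the same C3H/HeJ female pools. The female 6 week pool measured 801 for Gzma, 242 for Nkg7 and 440 for Ccl5, and the female control pool 576, 132 and 482. The male pools of those groups measured 373, 118 and 338 at 6 weeks, and 298, 125 and 262 in controls. Glycam1, a mucin of lymph node vessels, measured 108 and 222 in those 2 female pools, 39.2 in the A/J female control pool and between 1.78 and 13.2 on the other arrays. The 4 probe sets of lymph node stroma and follicle markers, Glycam1 among them, summed to 348 and 492 in male and female pools at 6 weeks. In the male and female controls they summed to 390 and 593. B cell markers summed to 1123 and 1184 at 6 weeks and to 1294 and 1312 in controls. The part of lymph node RNA in the levels of Gzma, Nkg7 and Ccl5 was not tested. The female 6 week pool also had the Gapdh ratio of 2.08. At 6 weeks against 3 weeks in C3H/HeJ, Gzma differed by 0.85 (SE 0.36, adjusted p = 0.305), Nkg7 by 0.23 and Ccl5 by 0.38. Without the female 6 week array the differences were 0.47 for Gzma (adjusted p = 0.820), -0.28 for Nkg7 and 0.27 for Ccl5, so that of Nkg7 lay below 0.

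No cytotoxic gene passed the test in A/J. Nkg7 ran from 71.1 to 121 over the 8 arrays, with 107 to 121 at 3 weeks, against 102 and 114 in controls. Ccl5 measured 230, 233, 217 and 213 at 3 weeks, against 274 and 289 in the controls, so all 4 treated pools lay below both controls. The difference was -0.32 (SE 0.23, adjusted p = 0.698), and at 6 weeks the pools measured 192 and 312, on either side of the controls. The Gzma change at 3 weeks was -0.37 in A/J (SE 0.31, adjusted p = 0.75), -0.46 in C3H/HeJ (SE 0.36, adjusted p = 0.59) and -0.50 in the mean of the strains (SE 0.20, adjusted p = 0.112). With the deposited scaling that mean was -0.78 (adjusted p = 0.0217 in limma). The median of all probe sets in this comparison was then -0.27, against -0.01 after quantile normalization.

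Over the 21 arrays Gzma correlated with Ccl5 at r = 0.79 and with Nkg7 at 0.68, and Nkg7 with Ccl5 at 0.69. Gzma and the CD3 genes were weakly correlated, with r of -0.17 for Cd3d, 0.18 for Cd3e and 0.11 for Cd3g. The genes closest to the mean pattern of Gzma, Nkg7 and Ccl5 were Gbp8, Mef2c, Trp53inp2, Rtl8c, Lmo2, Fancc, Enpp4 and Cemip2, with r between 0.77 and 0.83 over the 21 arrays.

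**Figure D4:**
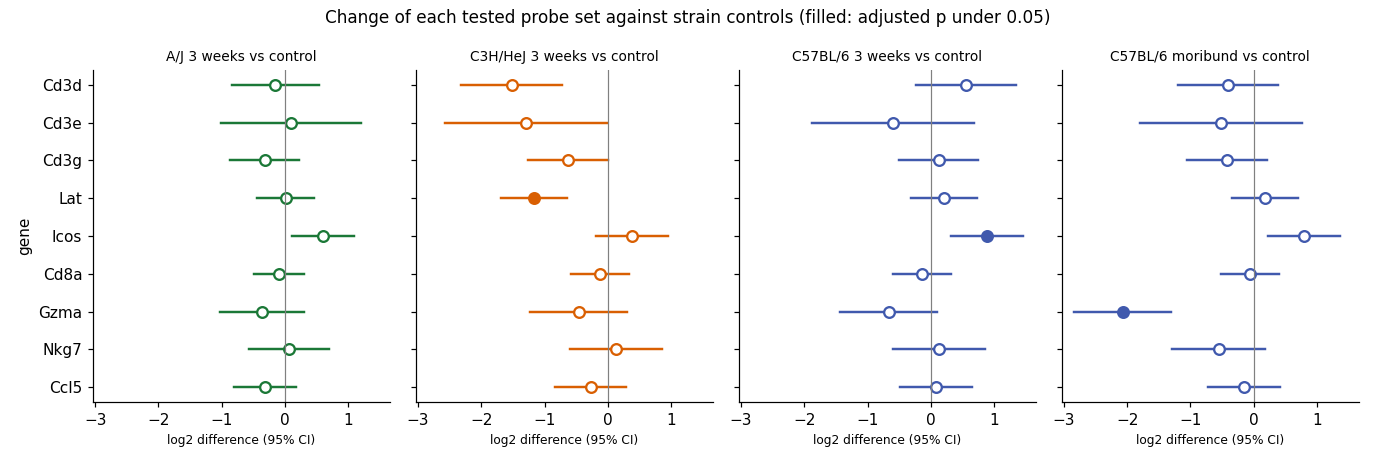
Log2 difference from the strain's controls of each tested member (points, with 95% intervals, x axes in log2 units) for A/J 3 weeks, C3H/HeJ 3 weeks, C57BL/6 3 weeks and moribund C57BL/6; filled points passed an adjusted p of 0.05. The filled points are Lat in C3H/HeJ (-1.17), Icos in C57BL/6 at 3 weeks (0.89) and Gzma in moribund mice (-2.07).

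Most of the other T and NK cell genes tested did not pass. Of 96 further genes in 3 lists, 49 probe sets of 40 genes were tested. In C57BL/6 at 3 weeks 3 of the 49 rose and 0 fell, beside 10.7% of all probe sets called: Tnfrsf9, the costimulatory receptor 4-1BB, by 2.15, Tyrobp, a signalling adaptor of NK and myeloid cells, by 1.26, and Lcp2, the adaptor SLP-76 that works with Lat and is also present in myeloid cells, by 0.84. In moribund mice the same genes rose by 1.93, 1.10 and 0.76. There 6 of the 49 were called, beside 12.8% of all, and 3 of them fell: both of Ets1, a transcription factor of lymphocytes and endothelium (-0.80 and -0.81), and that of Satb1, a chromatin organiser of T cells (-0.85). In A/J at 3 weeks Tyrobp was the 1 of 49 that passed in limma (0.63), beside 0.842% of all. In C3H/HeJ at 3 weeks 0 of 49 passed in limma, beside 1.7% of all. An unadjusted p under 0.05 was found for 8 of the 49, beside 14.9% of all.

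In the mean of the 3 strains at 3 weeks 5 of these 49 probe sets rose and 4 fell, beside 13.7% of all probe sets called. Tnfrsf9 (1.31), Tyrobp (0.76), Lcp2 (0.47), the chemokine Ccl4 (0.43) and Srgn, a granule proteoglycan found in many leukocytes (0.21), rose. Satb1 (-0.58), the T and NK cell adhesion receptor Cd2 (-0.54), the NK cell receptor Ncr1 (-0.47) and Ets1 (-0.44) fell. Ncr1 measured 62.4, 51.6, 56.8 and 62.7 in A/J at 3 weeks, against 101 and 87.2 in controls, and 46.5 and 40.2 in C57BL/6 at 3 weeks, against 86.3 and 59.7. In moribund mice it measured 42.1 and 39. Levels of Ncr1 in C3H/HeJ, which also enter the mean of the strains, are not given here. By list, the median change of all probe sets tested in the mean of the strains was 0.08 for receptor complex and signalling, 0.03 for identity, homing and costimulation and 0.09 for cytotoxic and NK cell genes, beside -0.01 over all probe sets.

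Marker sums of lymphocytes and of other cells are given here for the male and then the female pool. T cell markers (9 probe sets of 6 genes, among them the 3 CD3 genes) summed to 348 and 273 in C3H/HeJ at 3 weeks, against 496 and 581 in the controls, and the 6 of them that are not CD3 probe sets to 209 and 179, against 209 and 260. In males the difference of the sum thus lay in the CD3 probe sets. B cell markers (10 probe sets of 7 genes) summed to 928 and 768, against 1294 and 1312. B cell markers also lay lower without overlap in C57BL/6 at 3 weeks (526 and 763) and in moribund mice (831 and 470), against 1328 and 1223 in controls, and in A/J at 3 weeks (905 to 1080), against 1662 and 1624. Of 7 B cell probe sets tested, 4 fell in C57BL/6 at 3 weeks (beside 10.7% of all probe sets called), 4 in moribund mice (beside 12.8%) and 0 in C3H/HeJ at 3 weeks (beside 1.7%, with a median change of -0.54). Macrophage markers (14 probe sets of 9 genes) summed to 13321 and 12344 in C57BL/6 at 3 weeks and 14158 and 13191 in moribund mice, against 4304 and 4316 in controls. NK and cytotoxic markers (6 probe sets of 5 genes, among them Gzma and Nkg7) summed to 483 and 319 in moribund mice, against 818 and 757 in controls. Gzma itself differed there by -1.96 in males and -2.17 in females on the log2 scale, so this sum is not separate from the Gzma result. Heart muscle markers (8 probe sets of 5 genes) summed to 680 and 774 in moribund mice and 781 and 1030 in C57BL/6 at 3 weeks, against 2774 and 2737 in controls, and in C3H/HeJ to 1464 and 896 at 3 weeks, against 2379 and 2758. All 5 heart muscle probe sets tested fell in each of these 3 comparisons, beside 12.8%, 10.7% and 1.7% of all probe sets called. Neutrophil markers (6 probe sets of 6 genes) summed to 4115 and 5214 in moribund mice and 4854 and 4481 in C57BL/6 at 3 weeks, against 1622 and 2097 in controls, and in C3H/HeJ to 4671 and 4598 at 3 weeks, against 2674 and 1539. Endothelial markers (5 probe sets of 4 genes) summed to 2853 and 2061 in moribund mice, against 4257 and 3760 in controls. Of the 5, 3 fell, beside 12.8% of all probe sets called. The part of these shifts in the changes of Lat, Icos and Gzma was not tested. Rag1, which only developing lymphocytes use, had a median of 2.01 over the arrays, with a highest value of 30. It was the dimmest by median of 11 thymocyte probe sets, whose medians reached 43.6 for Dntt and 154 for Cd1d1. Those 11 summed to 344 and 309 in moribund mice, against 414 and 399 in controls. In C3H/HeJ they summed to 263 and 341 at 3 weeks, against 354 and 450. The part of thymus RNA in the levels was not tested.

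**Figure D5:**
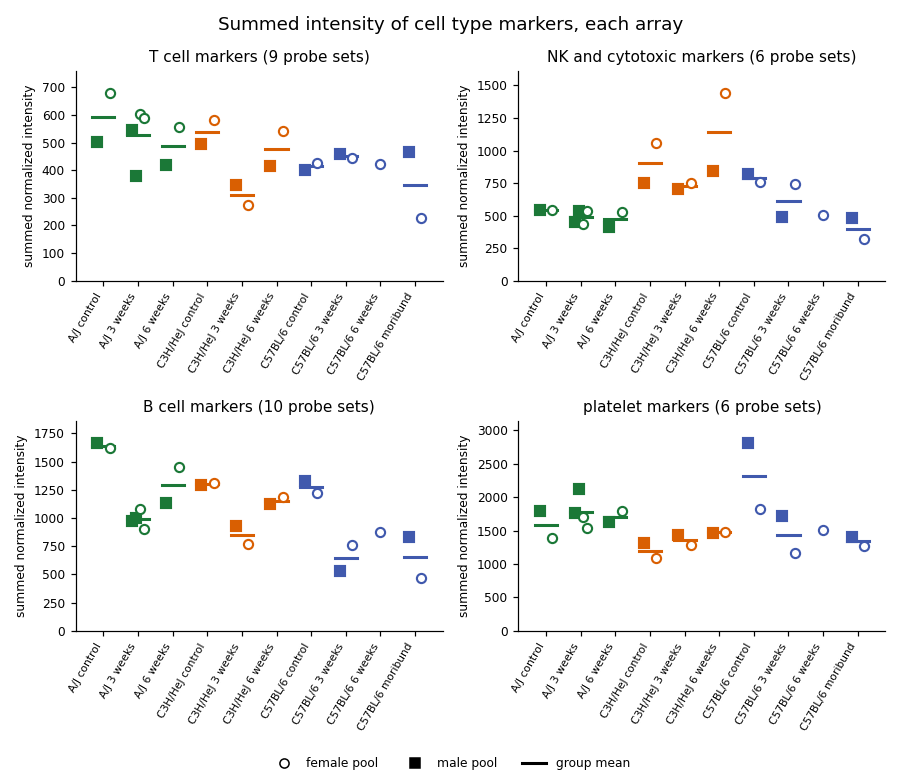
Summed normalized intensity of T cell, NK and cytotoxic, B cell and platelet marker probe sets on each array (y axes, linear, from 0) by strain and stage; filled squares are male pools, open circles female pools and bars group means. T cell sums are lowest in the moribund female pool (229) and the C3H/HeJ female 3 week pool (273), and B cell sums lie below their controls at 3 weeks in all 3 strains.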

How the data were processed

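Total RNA of 21 lung pools was hybridised to Affymetrix arrays. The deposited table holds 1 intensity per probe set and array on a linear scale. The summary software and the scaling behind it were not given in the sources used here. After 64 control probe sets were left out, 22626 remained, of which 20380 had 1 gene symbol in the platform annotation, 691 several and 1555 none. Because array medians differed by a ratio of 1.903, intensities were quantile normalized, and 16 was added before log2. limma 3.58.1 in R 4.3.3 fitted 10 group terms and sex on 15084 probe sets, with 10 residual degrees of freedom (16.4 after shrinkage), for 16 comparisons. The number of arrays limits the precision: the median SE of a change between 2 arrays and 2 was 0.212. Labels do not say that pools are independent experiments, so p-values measure the spread between these pools. The model was tested on simulated data.

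The member genes and all lists were chosen with earlier results of these data known. All member probe sets are described. From each list of other T and NK cell genes, up to 4 called probe sets with the smallest p per comparison are named, and for each pattern the 8 probe sets most correlated with it. Other settings tried were offsets of 1 and 64, the scaling as deposited, no filter on dim probe sets, no sex term, 1 probe set per gene and leaving out each array. After the data were seen, scaling to 1 median, the Gapdh ratio as a covariate and leaving out the 2 male arrays with the highest Xist were added.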

Additional observations from a re-analysis of the deposited data

Results flagged for a closer look

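For 1 of 13 member probe sets, a single array stood far from the others among the 4 A/J arrays at 3 weeks, the 1 group of a size that was tested. Cd3e (1422105_at) measured 45.4 in the A/J male pool at 100 mg/kg at 3 weeks, while the other 3 treated A/J pools of that stage measured between 114 and 128. Chance gives such a gap in about 1 in 20 tests, and the 13 tests share the same 4 arrays. The same pool was the lowest of these 4 for Cd3d, Cd3g and Lat.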

How the results depend on the processing

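No called value changed its direction in any alternative. The number of members called in C57BL/6 at 3 weeks was 0 with the deposited scaling, with no filter on dim probe sets and with the Gapdh ratio as a covariate. In C3H/HeJ at 3 weeks it was 2 (Cd3d and Lat) with an offset of 1, no sex term, 1 probe set per gene and scaling to 1 median. With 1 probe set per gene it was 1 (Lat) for C3H/HeJ 6 weeks against 3 weeks. Without the 2 male arrays of high Xist it was 2 (Icos and Gzma) in moribund mice. In the response of C57BL/6 minus C3H/HeJ that setting left 1 female pool of C3H/HeJ at 3 weeks. Leaving out each array in turn gave 0 to 1 calls in C57BL/6 at 3 weeks, 0 to 2 in C3H/HeJ at 3 weeks, 1 to 2 in the mean of the strains, 0 to 1 in C3H/HeJ 6 weeks against 3 weeks, 1 to 5 in moribund mice against control, 0 to 1 against 3 weeks and 0 to 1 in the response of C57BL/6 minus C3H/HeJ. In the other 9 comparisons it gave 0 to 0. Gzma in moribund mice passed throughout, with adjusted p between 0.00057 and 0.0297 in limma.

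With the deposited scaling the median change of all probe sets at 3 weeks was -0.34 in A/J, -0.30 in C3H/HeJ and -0.18 in C57BL/6, and -0.28 in moribund mice, against -0.02 to -0.00 after quantile normalization. It turned the members' median in C57BL/6 at 3 weeks to -0.09, against 0.13. Over all probe sets it called 467 in C57BL/6 at 3 weeks, 69 in C3H/HeJ, 53 in A/J and 809 in moribund mice, against 1614, 257, 127 and 1925 after quantile normalization. The response of C57BL/6 minus C3H/HeJ had 227 calls without the arrays of high Xist and 23 with them. The causes of these shifts were not tested. No paired analysis was possible because replicate numbers only name pools and mark no shared animals.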

Other observations

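Cxcl13, a chemokine that draws B cells into lymphoid follicles, rose in C57BL/6 lungs. The probe set with the larger change measured 367 and 162 in the male and female pools at 3 weeks, and 301 and 491 in moribund mice, against 73.2 and 97.4 in controls. The changes in limma were 1.38 at 3 weeks (adjusted p = 0.0125) and 1.995 in moribund mice (adjusted p = 0.000782). In A/J and C3H/HeJ the same probe set ran from 76.0 to 157 over 14 arrays, treated and control. B cell markers lay lower in the same C57BL/6 comparisons.

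Ppbp, a platelet chemokine, measured 348 and 313 in C57BL/6 at 3 weeks and 313 and 85.1 in moribund mice, against 1225 and 713 in controls. In A/J and C3H/HeJ it ran from 168 to 427. The 6 platelet probe sets, Ppbp among them, summed to 1409 and 1273 in moribund male and female pools, against 2803 and 1816 in controls. That sum is not separate from Ppbp, and changes of the other platelet markers are not given here.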
